A study of Mus musculus with 6 samples.

Results

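The genes described here encode the cell-killing branch of the BCL2 family: Bad, Bid, Bik, Bmf, Bcl2l11, Bbc3, Pmaip1 and Hrk, which encode BH3-only proteins, and the effector genes Bax and Bak1. They were chosen by name, and all probe sets that the platform annotation pairs with 1 of these symbols alone were taken, which gave 22 of the 45037 probe sets of the array other than controls. These 22 cover 9 of the 10 genes: 5 for Bcl2l11, 3 each for Bid, Bik and Bmf, 2 each for Bad, Hrk and Bak1, and 1 each for Bbc3 and Pmaip1. No probe set of the annotation used carries the symbol Bax, so Bax was not analysed here.

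RNA came from fetal livers of mouse embryos at day 14.5, from the cells that carry Ter119, with 3 pools from wild type embryos and 3 from STAT5 knockout embryos, each pool made of 3 to 5 embryos that shared a genotype and each hybridised to 1 Affymetrix Mouse Genome 430 2.0 array. Ter119 is a surface antigen of maturing erythroblasts, and the fetal liver makes most red cells at this age. STAT5 is the pair of transcription factors that the erythropoietin receptor switches on. The labels give no strain, allele or description of what the deletion removes. If the embryos lack STAT5 in every cell, effects on other fetal liver cells are not separated from those within erythroblasts.

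Mitochondrial apoptosis is decided by contacts between BCL2 proteins. BAX and BAK, once activated, form pores in the mitochondrial outer membrane and release cytochrome c, while BCL2, BCL-XL (gene Bcl2l1) and MCL1 hold them in check. BH3-only proteins, which share only the short BH3 helix with the rest of the family, bind and block these guardians, and some of them also activate BAX and BAK directly. In erythroblasts, erythropoietin protects from this form of death, and STAT5 is 1 of the routes by which its receptor signals.

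Bbc3 (PUMA) and Bcl2l11 (BIM), which encode BH3-only proteins that bind all the guardians, were the members with probe sets that read higher on every knockout array than on every wild type array while above background. Of all probe sets, at background or not, 6.84% were higher on every knockout array. Of the 21758 above background in both genotypes, as these were, it held for 2196. At Bcl2l11 this held for 2 of the 5 probe sets, and not for the brightest. RefSeq promoters of Bbc3 and Bcl2l11 are therefore shown, as the bases before the transcription start in assembly GRCm38.p6. The forkhead motif TGTTTAC, searched on both strands, is in capitals. The windows printed were picked because they hold this motif, and the windows at the other starts of both genes hold no match to it. FOXO3, a forkhead factor of erythroid cells, is known to act on both genes, and its part in the differences was not tested. The Bbc3 window precedes the second of 3 RefSeq starts (chr7:16310011-16310260, plus strand), and the Bcl2l11 window the first of 2 (chr2:128125788-128126037, plus strand, where the motif reads on the minus strand).
Bbc3: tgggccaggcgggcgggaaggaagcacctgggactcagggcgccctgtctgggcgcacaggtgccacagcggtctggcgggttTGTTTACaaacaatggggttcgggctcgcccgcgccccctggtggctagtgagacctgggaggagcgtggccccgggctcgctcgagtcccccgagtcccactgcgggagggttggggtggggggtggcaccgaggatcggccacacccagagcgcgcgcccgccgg
Bcl2l11: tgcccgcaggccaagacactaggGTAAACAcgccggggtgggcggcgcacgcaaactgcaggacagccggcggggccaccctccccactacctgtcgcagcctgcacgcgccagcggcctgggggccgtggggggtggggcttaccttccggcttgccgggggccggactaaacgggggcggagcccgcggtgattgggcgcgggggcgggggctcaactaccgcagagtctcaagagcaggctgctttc
The forkhead motif lies in 2 of the 14 windows of 250 bases that RefSeq gives for 8 of the 10 genes (Bik and Pmaip1 are the others), and in 3.17% of all 32851 windows. The palindromic motif TTCNNNGAA, to which STAT factors bind, lies in 0 of the 14 and in 7.02% of all windows. The E-box CACGTG lies in 2 of the 14, at 1 further start of Bbc3 and at Bax, against 6.02% of all windows, and the p53 half-site in 2, at 1 start of Bmf and at Bax, against 7.13%. That further Bbc3 window overlaps the one printed. A match describes the letters alone, and the absence of one from a window of this size says nothing of whether the factor binds the gene.

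Values are deposited linear intensities, called signals. Median signals of the arrays lay between 175.6 and 215.8, and the control level is 162.5, under which 95% of the values of the 27 Bacillus subtilis controls fell. Differences are log2 signal in knockout minus wild type, and their standard errors (SE) come from limma, fitted to all 45037 probe sets with a mean-variance trend. A level is a mean of log2 signals ± SD over the 3 pools of a genotype. The median difference of all probe sets was -0.07, or -0.00026 after quantile normalization and 0.04 after median centring, against which each difference is to be read. Of the targeted genes, all 4 probe sets of Stat5a and Stat5b read lower on every knockout array than on every wild type array, with adjusted p from 0.0899 to 0.235 (limma), and at 3 of the 4 all knockout signals lay under the control level. Whether these probe sets lie in the deleted part is not known here. Of 12 erythroid markers, 9 had a probe set and all of these lay above the control level, and markers of hepatocytes were above it too, with summed signals of 142766 to 236293 in wild type and 123328 to 135550 in knockout pools. In bulk RNA, fewer cells of a type and less transcript per cell cannot be told apart.

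No member passed the threshold, an adjusted p under 0.05 after Benjamini-Hochberg correction over all probe sets. Limma's fit with the trend called 0 of the 22 probe sets, and it called 70 of 45037, which is 0.155%. At an unadjusted p under 0.05 there was 1 member probe set, that of Bbc3, where 9.97% of all probe sets met this. The fit without a trend called 0 members and 0 probe sets in all, with Bbc3 again the 1 member at an unadjusted p under 0.05 against 8.01% of all probe sets. The submitters' test called 0 of either after adjustment. The submitters' own criterion, p under 0.05 without adjustment and over 1.5-fold, was met by 1 of the 22, again Bbc3 and higher in knockout, where 2.14% of all probe sets met it in that direction. Groups did not overlap at 4 of the 22, all with knockout higher, against 6.84% of all probe sets in that direction and 15.8% in either. Those 4 are the probe sets of Bbc3, 2 of Bcl2l11 and 1 of Bid that lay below the control level. Only 12 of the 22 were above the control level in both genotypes, 1 more in knockout only, and 9 in neither. The median difference of the 22 was 0.10, with 12 higher and 10 lower in knockout.

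**Figure D1:**
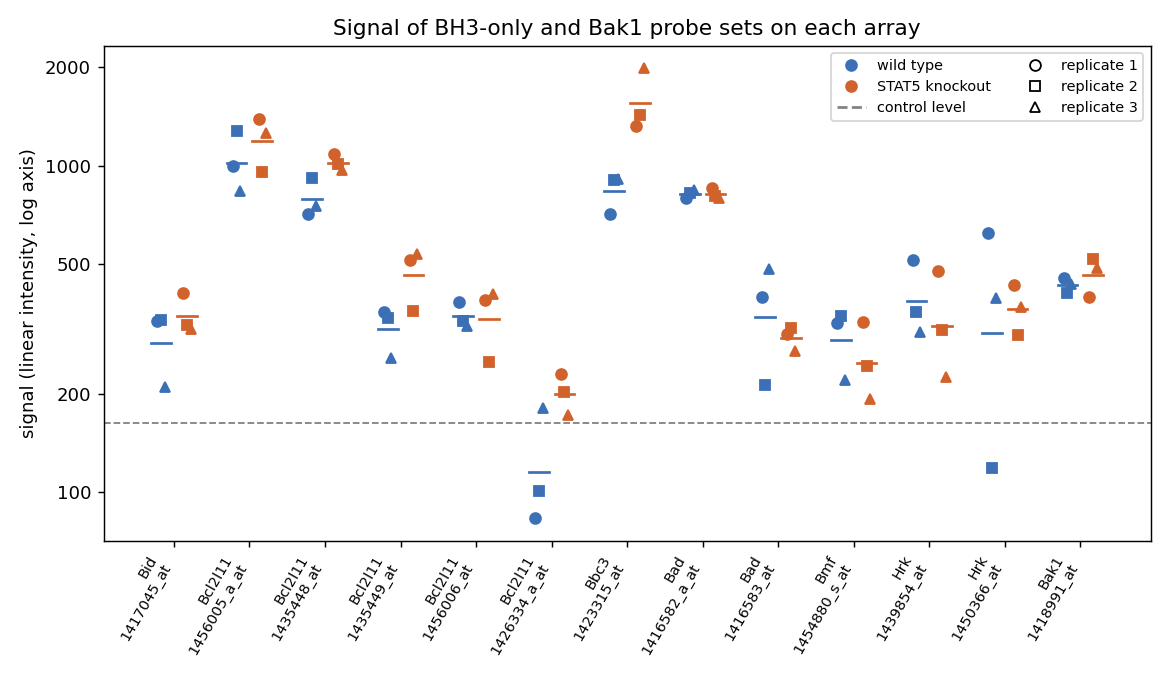
Signal on each array (vertical axis, linear intensity on a log axis) of the 13 probe sets above the control level (dashed) in at least 1 genotype, with blue for wild type, orange for STAT5 knockout, a marker shape for each replicate and a bar at the mean of the log2 values. The 3 knockout arrays stand clear above the 3 wild type arrays at Bbc3, from 1325 to 1983 against 709.3 to 911.3, while the Bad probe set 1416582_a_at reads between 793.4 and 855.6 on all 6 arrays.

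Bbc3 encodes PUMA, the BH3-only protein that p53 and FOXO3 induce. Its 1 probe set, 1423315_at, read 709.3, 900.1 and 911.3 in the wild type pools and 1325, 1430 and 1983 in the knockout pools. Each knockout pool was thus brighter than each wild type pool, with knockout replicate 3 the highest. On the log2 scale the levels were 9.71 ± 0.20 and 10.60 ± 0.31, a difference of 0.90 (SE 0.20, 95% interval 0.46 to 1.34), or 1.86-fold. The adjusted p was 0.154 over all probe sets (limma with a trend) and 0.101 when each of 18193 genes was represented by its brightest probe set. An exact two-sided permutation test of this probe set gave p = 0.1, the smallest that 3 against 3 arrays can give. Leaving out 1 array moved the difference to between 0.72 and 1.01, and it was 0.86 after quantile normalization and 1.01 after median centring.

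The progenitor markers differed between the same arrays. Their summed signal was 1354 to 2281 in wild type and 3010 to 4367 in knockout pools over the 4 markers of the list, without overlap. Kit and Myb were higher on each knockout array than on each wild type array, Gata2 differed by -0.03, and the means of Cd34 lay under the control level in both genotypes. Hepatocyte markers went the other way, with 9 of 9 measured lower. Of the 9 erythroid markers with a probe set, 8 were lower, 3 of these without overlap, and their summed signal was 261539 to 278256 in wild type and 202832 to 263656 in knockout pools. The part of any of these lists in the Bbc3 difference was not tested.

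Bcl2l11 encodes BIM, the BH3-only protein that cytokine withdrawal induces in blood cells. At probe set 1435448_at the signals were 712.9, 914.9 and 754.1 in wild type and 1085, 1012 and 968.7 in knockout pools. The knockout pools were all above the wild type pools, and the difference was 0.37 (SE 0.17, 95% interval -0.0018 to 0.74, adjusted p = 0.504 by limma). At 1435449_at the signals were 357.1, 341.3 and 257.9 in wild type against 512.4, 358.8 and 536.9 in knockout. There the groups were parted only by the narrow step between wild type replicate 1 and knockout replicate 2, and the difference was 0.55 (SE 0.25, adjusted p = 0.517).

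The brightest Bcl2l11 probe set, 1456005_a_at, read 997.0, 1276 and 834.8 in wild type and 1383, 952.5 and 1262 in knockout pools. Here the groups overlapped, and the difference was 0.22 (SE 0.21). At 1456006_at, with 382.1, 333.7 and 323.0 against 387.2, 250.4 and 404.9, the difference was -0.02 (SE 0.26), and it turned to 0.045 after quantile normalization and 0.09 after median centring. At the dimmest, 1426334_a_at, only wild type replicate 3 (181.3) exceeded the control level, with 83.3 and 101.1 in the other wild type pools, while the knockout pools read 230.1, 202.8 and 172.4. Its knockout mean was at least 1.19-fold above the wild type mean with dim values raised to the control level (adjusted p = 0.560), and the groups overlapped. Of the 5 probe sets of Bcl2l11, the 4 above the control level in both genotypes thus gave differences from -0.02 to 0.55. The sources used here do not tell which BIM isoforms each probe set reads.

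Bid encodes the BH3-only protein that caspase 8 cleaves and that carries death receptor signals to mitochondria. Its brightest probe set, 1417045_at, read 334.4, 337.7 and 209.1 in wild type pools and 406.8, 325.0 and 316.7 in knockout pools. The groups overlapped, with wild type replicate 3 the lowest of the 6, and the difference was 0.28 (SE 0.28, 95% interval -0.35 to 0.90), or 0.047 without that array. The other Bid probe sets stayed below the control level on all 6 arrays. At 1 of these, 1448560_at, every knockout array was above every wild type array, with signals of 11.2 to 13.5 in wild type and 17.04 to 95.6 in knockout pools, and no fold is given for values under that level.

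Pmaip1 encodes NOXA, a p53-induced BH3-only protein that binds MCL1. Its 1 probe set read 31.96, 117.9 and 72.7 in wild type and 61.0, 46.5 and 129.8 in knockout pools. All 6 values lay below the control level, so these arrays set no more than an upper bound on it.

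**Figure D2:**
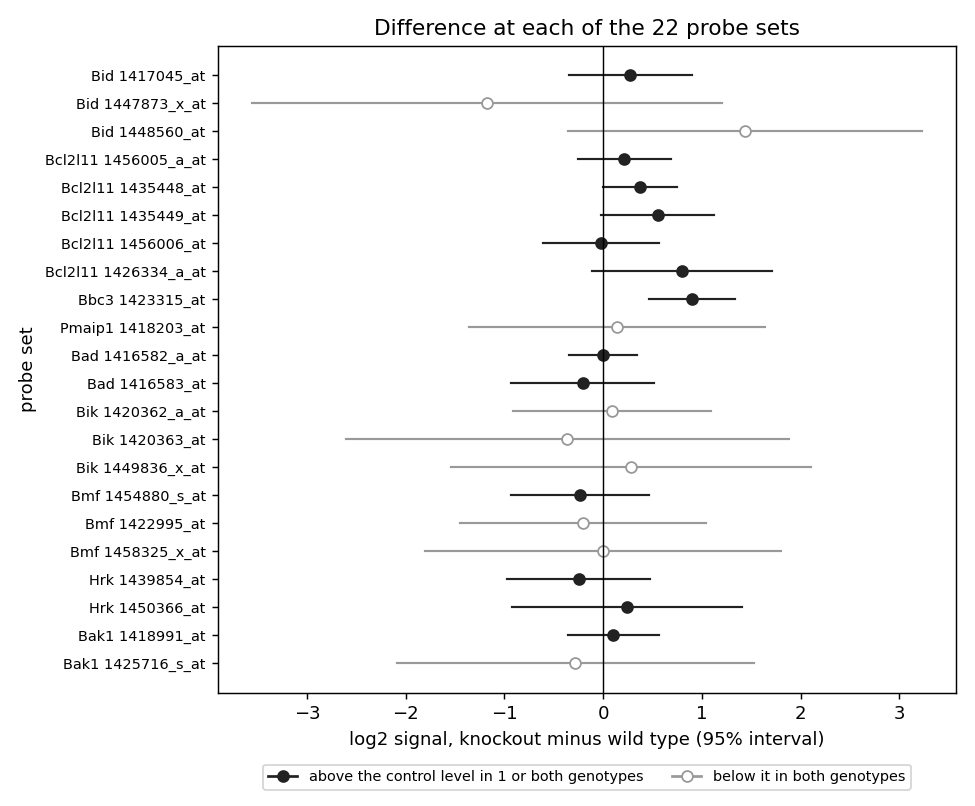
Difference in log2 signal, knockout minus wild type (horizontal axis), at each of the 22 probe sets, with the 95% interval of limma's fit with a trend before correction for multiple tests. Open grey circles are the 9 probe sets under the control level in both genotypes, whose intervals are wide. Bbc3, at 0.90 with an interval of 0.46 to 1.34, is the probe set whose interval lies wholly on 1 side of 0.

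Bad encodes a BH3-only protein that binds BCL2 and BCL-XL and that survival kinases, among them the PIM kinases and AKT, silence by phosphorylation. At 1416582_a_at it read 795.9, 821.1 and 843.6 in wild type pools and 855.6, 808.4 and 793.4 in knockout pools. The 6 arrays were close together, and the difference was -0.0022 (SE 0.15, 95% interval -0.35 to 0.34), turning to 0.11 after median centring. The SD between pools was 0.042 in wild type and 0.057 in knockout, the smallest in either genotype among the 22 probe sets. At 1416583_at the signals were 394.6, 212.5 and 482.1 against 305.4, 319.2 and 270.1, which overlapped, with a difference of -0.21 (SE 0.32).

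Bmf encodes a BH3-only protein bound to dynein light chains and myosin motors in healthy cells. Its brightest probe set, 1454880_s_at, read 330.4, 346.0 and 220.1 in wild type and 331.8, 242.6 and 192.3 in knockout pools. The difference was -0.23 (SE 0.31, 95% interval -0.94 to 0.47) with overlapping groups, and it ran from -0.44 to -0.047 when 1 array was left out, the latter without knockout replicate 3. The other 2 Bmf probe sets lay below the control level on all arrays.

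Hrk encodes Harakiri, a BH3-only protein best known from neurons. At 1439854_at it read 513.0, 357.2 and 308.3 in wild type and 476.0, 313.5 and 225.7 in knockout pools, a difference of -0.25 (SE 0.32). At 1450366_at the wild type pools read 623.2, 118.5 and 394.4 and the knockout pools 429.4, 302.9 and 369.2, a difference of 0.24 (SE 0.52). The groups overlapped at both, and the low value of wild type replicate 2 at the second lay under the control level. Without that array the second probe set differed by -0.45, on the same side as the first.

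Bik encodes a BH3-only protein of the endoplasmic reticulum membrane. Its 3 probe sets had means below the control level in both genotypes, and at 2 of them all 6 arrays were below it. At the remaining 1, 1420363_at, the signals scattered from 44.6 to 208.5 in wild type and from 14.1 to 193.4 in knockout pools.

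Bak1 encodes BAK, the effector that sits in the mitochondrial outer membrane. Its brighter probe set, 1418991_at, read 454.0, 407.6 and 433.7 in wild type and 396.5, 516.9 and 484.1 in knockout pools. The groups overlapped, and the difference was 0.10 (SE 0.21, 95% interval -0.36 to 0.56). The dimmer Bak1 probe set stayed below the control level on all arrays.

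By role, 8 of the 10 probe sets of Bid, Bcl2l11, Bbc3 and Pmaip1, the genes of direct activators and of the p53-induced pair, were higher in knockout pools, but 2 of the 8 were at background in either genotype and 1 in wild type, with means under the control level. Of the 10 probe sets of Bad, Bik, Bmf and Hrk, whose products act mainly by blocking guardians, 3 were higher and 7 lower, and 5 of the 10 were at background in either genotype. Of all 45037 probe sets, 19719 were higher in knockout pools. Probe sets of 1 gene read the same RNA and are not replicates, 5 of the first 10 belong to Bcl2l11, and the difference between the roles was not tested. The roles were set with earlier results of these data known, and Pmaip1, whose product binds MCL1, was counted with the first group.

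The same arrays gave the rest of the pathway, with 1 probe set per gene, the brightest, in a fit over 18193 genes that called 0.44% of them, and 16.9% of all genes had groups that did not overlap. Among the guardians, 5 of 9 listed genes had a probe set, 0 were called in either direction, and all 5 were lower in knockout pools in the values as deposited (median -0.54, against -0.08 for all genes), 1 of them, Bcl2l10, at background. Mcl1 read 10067, 9977 and 12314 in wild type and 6278, 6708 and 6087 in knockout pools, a difference of -0.76 (SE 0.13) with an adjusted p of 0.0508 (limma), just past the threshold. Each of its 6 probe sets was lower on every knockout array than on every wild type array, with differences from -0.85 to -0.70, and it was called after quantile normalization, without the dimmer 50% of probe sets and with array weights. Bcl2l1, the erythroid guardian BCL-XL, differed by -0.62 (SE 0.25, adjusted p = 0.390) and Bcl2l2, which encodes BCL-W, by -0.20 (SE 0.27), both with overlapping groups at the brightest probe set. The other Bcl2l1 probe sets differed by -0.29, -0.63 and -0.37, of which the one at -0.63 had groups that did not overlap. Bcl2, the founding guardian, read 346.4, 612.8 and 410.8 against 325.9, 254.0 and 344.6, a difference of -0.54 (SE 0.28, adjusted p = 0.525) without overlap at its brightest probe set.

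Within each array, log2 Bbc3 minus log2 Mcl1 does not depend on any factor by which that array was scaled. It was -3.83, -3.47 and -3.76 in the wild type pools and -2.25, -2.23 and -1.62 in the knockout pools. The knockout arrays were all above the wild type arrays, by 1.65 on average. The same measure against Bcl2l1 was -4.53, -4.68 and -4.01 in wild type and -3.21, -3.42 and -2.03 in knockout pools, 1.52 higher on average. Both pairs were picked after their values were seen, and no test is given. As each probe set has its own scale, only the change between genotypes can be read, not the size of the ratio.

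**Figure D3:**
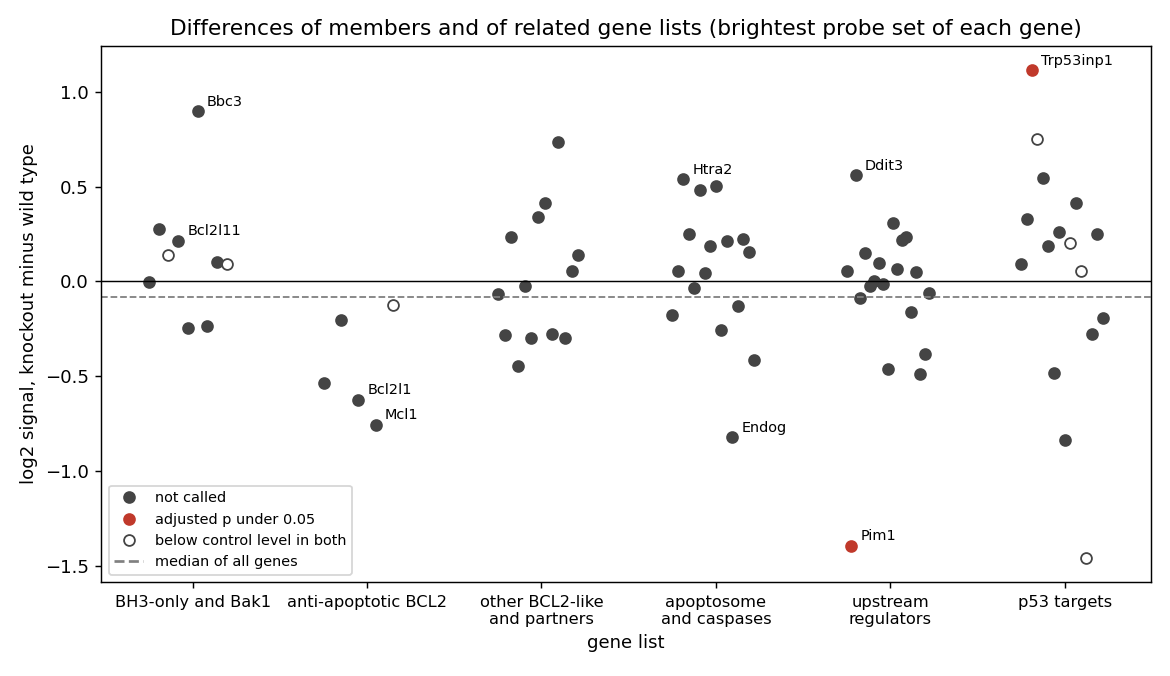
Difference in log2 signal, knockout minus wild type (vertical axis), of each measured gene at its brightest probe set, by gene list, with the median of all genes dashed and open circles for genes below the control level in both genotypes. Red marks the genes called by limma with a trend, Pim1 at -1.40 and Trp53inp1 at 1.11. The 5 guardian genes lie below 0, and the 9 members lie on both sides of it with Bbc3 at 0.90.

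Of the BCL2-like genes and binding partners, 13 of 15 were measured, 0 were called, and 6 were higher and 7 lower. Bcl2l13, a mitochondrial BCL2-like protein, differed by 0.41 (SE 0.13), and Vdac2, the channel that holds BAK at the mitochondrion, by 0.34 (SE 0.13), both without overlap. Dynll1, the dynein light chain that binds BIM, differed by -0.30 (SE 0.13), and Mtch2, the mitochondrial receptor of BID, by -0.30 (SE 0.14), also without overlap at its brightest probe set. The next 2 probe sets of Mtch2 in brightness overlapped, with differences of 0.02 and -0.22. Downstream of BAX and BAK, 16 of 18 genes of the apoptosome and caspases were measured, 0 were called, and 10 were higher and 6 lower. Cycs, cytochrome c, differed by -0.41 (SE 0.13), Endog, a mitochondrial nuclease, by -0.82 (SE 0.28), Htra2, a mitochondrial protease that relieves caspase inhibition, by 0.54 (SE 0.17) and Birc3, a caspase-linked ubiquitin ligase, by 0.48 (SE 0.25). The other probe set of Htra2 gave 0.60, while that of Endog gave -0.09.

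Among the genes that act on the members, 19 of 23 were measured. Pim1, which encodes a kinase that phosphorylates BAD, fell by 1.40 on the log2 scale (SE 0.17, adjusted p = 0.0111, limma with a trend) and was the 1 gene of this list called. It read 10443, 11622 and 14739 in wild type and 4091, 5564 and 4318 in knockout pools, and it lost the call without knockout replicate 1, without knockout replicate 3, after median centring, without the trend and by the submitters' test, and kept it under the other alternatives. Its other probe set differed by -0.86, without overlap. Ddit3, the stress factor CHOP, known to induce Bcl2l11 and Bbc3, differed by 0.56 (SE 0.20, adjusted p = 0.342) without overlap at its brightest probe set. The other Ddit3 probe set differed by 0.38 (SE 0.39) with overlap. E2f1, a cell cycle factor also known to induce BH3-only genes, differed by -0.46 (SE 0.17) without overlap, and Foxo1 by -0.49 (SE 0.29) with overlap, while the next Foxo1 probe sets in brightness gave -0.15 and 0.03. Foxo3 read 8630, 10824 and 5232 against 8151, 7679 and 10679, which overlapped.

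Of the p53 target genes, all 16 were measured, 11 were higher and 5 lower, and the median difference was 0.19. Over all 18193 genes, 7623 were higher in knockout pools and the median was -0.08. Only 12 of the 16 targets exceeded background. Zmat3, Tnfrsf10b and Fas, counted as higher, and Eda2r, counted as lower, were at background in both genotypes. Whether the list as a whole differed was not tested. Trp53inp1, a p53-induced gene linked to autophagy and cell death, was the 1 gene of this list called. It read 414.4, 365.3 and 471.2 in wild type and 784.1, 910.2 and 1013 in knockout pools and rose by 1.11 (SE 0.19, adjusted p = 0.0478, limma with a trend), just under the threshold. Its other probe set differed by 0.43, without overlap. Of the alternatives run, the call was kept with robust estimation, without the dimmer 50% of probe sets and with array weights, and it was lost under all others, each of the 6 fits that left out 1 array included. Sesn1, a stress-induced antioxidant regulator, differed by -0.28 (SE 0.12) and Mdm2, the ubiquitin ligase of p53, by 0.33 (SE 0.20) with overlap. A nearly as bright Mdm2 probe set differed by 0.0099. The dimmest Mdm2 probe set, above the control level in wild type only, was lower on every knockout array than on every wild type array. The other Sesn1 probe sets differed by -0.52, -0.32 and 0.06. Perp, a p53-induced membrane protein, was above the control level in wild type only and at least 1.48-fold lower in knockout pools (adjusted p = 0.532), with overlapping groups. Cdkn1a, the p21 cell cycle inhibitor, differed by 0.18 with overlapping groups.

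**Figure D4:**
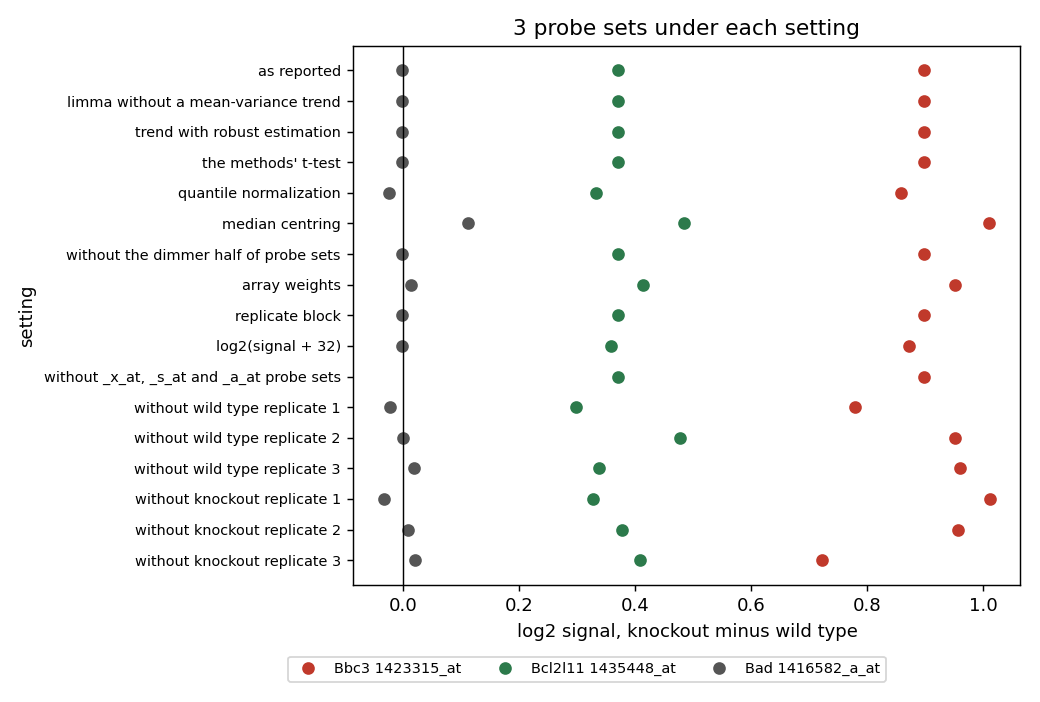
Difference in log2 signal, knockout minus wild type (horizontal axis), of 3 probe sets under each processing setting (vertical axis). Bbc3 stays between 0.72 and 1.01 and Bcl2l11 1435448_at between 0.30 and 0.48, while Bad lies on both sides of 0, between -0.034 and 0.11.

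Over the 6 arrays, the genes with the pattern most like each member were found among 9837 other genes above the control level on every array. For Bbc3 they were Srrm2 and Ing3 (Pearson r = 0.985 and 0.982), for Bcl2l11 Dnph1 and Ccdc50 (0.976 and 0.974), and for Bid Lgr6 and Hmgxb3 (0.980 and 0.980). For Bad they were Car5a and Mcph1 (0.972 and 0.967), for Bmf Rccd1 and Mettl21a (0.990 and 0.990), for Hrk 2310047D07Rik and Efcab1 (0.988 and 0.977), and for Bak1 Hspb6 and Ccdc74a (0.979 and 0.976). With 6 points that share array and genotype, values this high are reached by the best of so many genes, and the figures only describe these arrays. Srrm2 differed by 0.79 between genotypes, near the 0.90 of Bbc3, while Ing3 differed by 0.18.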

How the data were processed

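Each of 6 RNA pools was hybridised to 1 array, and titles gave each sample's group and replicate number. The deposited values are linear intensities, 1 per probe set and array. Per the submitters' processing notes RMA and Partek were used, with no version, and the sources used here do not say how the arrays were scaled. With array medians from 175.6 to 215.8, the deposited values do not share 1 distribution, so they are not quantile normalized. Whether they are the RMA output is not known here. The values were taken as deposited and log2 transformed with no pseudocount.

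Of 45037 probe sets other than 64 controls, the GEO platform annotation gives 34945 1 symbol, 932 several and 9160 none. The test was limma 3.58.1 (R 4.3.3) with a mean-variance trend on all 6 arrays, since the median SD within groups was 0.820 in the dimmer 50% of probe sets and 0.277 in the brighter. Probe sets with means under the control level get no fold, or "at least N-fold" with dim values raised to it. The members and gene lists, and the choice of the trend, were made with earlier results of these data known. From each list up to 4 genes are named, those with the smallest p whose brightest probe set exceeds the control level in 1 or both genotypes, and Foxo3, Cdkn1a and the marker genes were added after their values were seen. The alternatives were other tests, scalings, filters and units, a replicate block and leaving out each array. The method was tested on simulated data with 100 probe sets changed by 2 and 100 by 1 on the log2 scale. All were drawn from those with a mean above the control level. Each simulated SD was set by the mean signal alone, which favours the fit with the trend. The shares called are therefore no measure of power for the real data or for dim members. The fit with the trend called 92% and 61% of these, with 6 false calls, and the fit without it called 0% of either. The 0 calls of the fit without the trend thus say little of whether a change is absent. Replicates are separate pools, and their number limits the precision.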

Additional observations from a re-analysis of the deposited data

How the results depend on the processing

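Of the 22 probe sets, 0 were called under any of the 18 alternatives that were run, with 12, 13 or 9 of them tested where dim or less specific probe sets were left out or genes were the unit. The adjusted p of Bbc3 ran from 0.0791 to 0.533 (from 0.0687 to 0.430 with genes as the unit). Of 333 values of single probe sets under alternatives, 301 kept their sign and 32 turned it, and 9 of the 22 probe sets had 1 sign in all settings. The count of all probe sets called, 70, was 0 without the trend and by the methods' t-test, 33 after median centring, 189 without the dimmer 50% of probe sets, 108 with array weights, 39 without _x_at, _s_at and _a_at probe sets, 36 with each gene's probe sets averaged, and 7 to 78 without 1 array. The median difference of the member probe sets, 0.10, was 0.19 after quantile normalization, 0.21 after median centring, 0.014 with array weights, 0.0016 with the mean of a gene's probe sets, and 0.057 to 0.19 without 1 array. Members with groups that did not overlap were 4 of 22, where 15.8% of all probe sets did not overlap in either direction. They numbered 1 of 9 genes at the brightest probe set, where 16.9% of all genes did not overlap, and 2 of 9 at the mean. Without 1 array they numbered 4 to 6, the 6 without wild type replicate 2 being 4 higher and 2 lower. Fewer arrays part more easily, so those counts are not comparable with the 4 of 22. For them and for the mean no share over all features is given here. The submitters' criterion, met by 1, was met by 2 after quantile normalization or median centring, Bcl2l11 1435449_at being the second, and by 1 to 2 without 1 array. The second was Bcl2l11 1426334_a_at without wild type replicate 3, Bid 1448560_at without knockout replicate 1 and Bcl2l11 1435449_at without knockout replicate 2. The 2.14% of all probe sets that met the criterion with knockout higher is for the values as deposited. For the other settings no share over all probe sets is given here, so their counts cannot be read against one. The pathway genes called, 2, numbered 0 without the trend, by the t-test and after median centring, 1 with the replicate block, with 32 added to the signal, without the less specific probe sets and with the mean of a gene's probe sets, and 0 to 1 without 1 array. They numbered 3 without the dimmer 50% of probe sets and with array weights, where Mcl1 joined Pim1 and Trp53inp1. After quantile normalization the 2 called were Mcl1 and Pim1, both lower in knockout.

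Signs that turned were those of Bcl2l11 1456006_at (0.045 after quantile normalization, 0.09 after median centring, -0.15 to 0.20 without 1 array), Bad 1416582_a_at (0.11 after median centring, 0.013 with array weights, -0.034 to 0.020 without 1 array) and Bmf 1458325_x_at (0.23, 0.11 and 0.088 after quantile normalization, median centring and array weights, -0.49 to 0.57 without 1 array). Without 1 array alone, ranges that crossed 0 were -1.90 to 0.23 (Bid 1447873_x_at), -0.37 to 0.57 (Pmaip1), -0.55 to 0.039 (Bad 1416583_at), -0.086 to 0.22, -1.02 to 0.87 and -0.47 to 0.71 (Bik 1420362_a_at, 1420363_at and 1449836_x_at), -0.58 to 0.14 (Bmf 1422995_at), -0.53 to 0.0098 and -0.45 to 0.75 (Hrk 1439854_at and 1450366_at) and -1.04 to 0.37 (Bak1 1425716_s_at). Ranges that kept their sign but spread widely were 0.071 to 0.38 (Bcl2l11 1456005_a_at) and 0.022 to 0.21 (Bak1 1418991_at). The cause was not tested.

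Same-numbered pools correlated by 0.0624, 0.0976 and 0.0699 in their deviations from the group means, below the 0.1 at which the numbers would count as pairs, although each array correlated best with its own number. With the replicate block 0 members, 61 probe sets and 1 pathway gene were called. At the 9 probe sets with means below the control level in both genotypes, Bik 1420363_at apart, these arrays give only an upper bound on the signal. Bik 1420363_at exceeded the level on 1 wild type and 2 knockout arrays.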
